A study of Arabidopsis thaliana with 12 samples.

Results

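The LHCB genes encode the chlorophyll a/b-binding antenna proteins of photosystem II. The 10 genes described here are LHCB1.3 (AT1G29930), LHCB1.5 (AT2G34420), LHCB2.3 (AT3G27690), LHCB3 (AT5G54270), LHCB4.1 (AT5G01530), LHCB4.2 (AT3G08940), LHCB4.3 (AT2G40100), LHCB5 (AT4G10340), LHCB6 (AT1G15820) and LHCB7 (AT1G76570). They were chosen by locus identifier, as every open reading frame (ORF) whose name began with one of the 10. ORFs were listed for 9 of the 10 genes in root and for all 10 in shoot, out of 16757 genes in root and 16191 in shoot. The 10 genes had 12 ORFs among the 21768 of root and 12 among the 21128 of shoot, each in the category of annotated coding ORFs.

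The data came from wild-type Arabidopsis thaliana of the Col ecotype, aged 4 days. Seedlings grew in shaken liquid medium with 1% sucrose, under 16 h of light and 8 h of dark at 22 °C, and roots and shoots were taken 3 h after the lights came on. Ribosome profiling, which sequences the RNA fragments that ribosomes protect, had 3 samples for each tissue, and RNA-seq, not analysed here, had another 3. The ORF tables held 1 whole-number count per ORF and tissue, so the differences between tissues described here were not checked over replicates and carry no p-value. The 95% intervals cover counting error only, as fragments without molecular identifiers need not be separate molecules and plant-to-plant variation is left out.

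Antenna proteins absorb light and pass the energy to the photosystem II core. LHCB1, LHCB2 and LHCB3 form the trimers of the major complex, LHCII. LHCB4, LHCB5 and LHCB6, also called CP29, CP26 and CP24, are monomeric linkers that lie between the trimers and the core. LHCB4.3 and LHCB7 are rarer members of the family. The genes are nuclear, the proteins are imported into the chloroplast and inserted into the thylakoid membrane, and light-grown leaves are their known site of high expression.

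The antenna genes took up a far larger part of ribosome occupancy in shoot than in root. Summed over the 10 genes, the largest ORF counts came to 119117 in root and 2479429 in shoot. That was 0.105% of the root sum over all genes (exact binomial interval 0.104 to 0.106) and 2.60% of the shoot sum (2.59 to 2.60), a 24.7-fold difference in share. These sums over all genes, 113381941 in root and 95481490 in shoot, cover called ORFs only and are not library depths. Of the 20 genes with the largest counts, 4 in shoot and 0 in root were among the 10 genes, and LHCB1.2, a copy outside the 10, made a 5th in shoot. Fewer green cells and fewer ribosomes on LHCB transcripts per cell cannot be told apart in whole organs, and neither can transcript level and translation in these tables.

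Among the trimer subunits, LHCB1.3 had 26179 counts in root (Poisson interval 25863 to 26498) and 801315 in shoot (799561 to 803071). Its shoot count was the 4th largest of any gene, and per codon it ranked 2nd, at 3001 counts per codon against 98.0 in root. The ORF of 267 codons is a single block on chromosome 1 from 10478072 to 10478873, plus strand. Coordinates are those of the TAIR10 build, and outer ends are uncertain by 1 base. LHCB1.3 was 36.3-fold higher in shoot as a share of the tissue sum (log2 ratio 5.18, interval 5.17 to 5.20).

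LHCB1.5 stood apart from LHCB1.3 although both encode the same kind of trimer subunit. It had 38425 counts in root, the highest of the 10 genes there, and 355211 in shoot. Its single block of 265 codons lies on chromosome 2 from 14522719 to 14523512, minus strand. Its ratio was 11.0-fold (log2 3.46, 3.44 to 3.47), the lowest of the 9 genes with a ratio. LHCB1.3 had 2.24 times the counts per codon of LHCB1.5 in shoot and 0.676 times in root, so the order of the pair was reversed between tissues.

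LHCB2.3, the partner of LHCB1 in the trimers, had 1938 counts in root and 72303 in shoot, over 266 codons in 2 blocks on chromosome 3 from 10256003 to 10256920. Its ratio of 44.3-fold (log2 5.47, 5.40 to 5.54) was the highest of the 9. LHCB3, the third trimer subunit, had 14645 counts in root and 372481 in shoot, over 265 codons in 3 blocks on chromosome 5 from 22038425 to 22039382. That made 55.3 counts per codon in root and 1406 in shoot, a 30.2-fold higher share (log2 4.92, 4.89 to 4.94). Per codon LHCB3 exceeded LHCB2.3 by 7.59 times in root and 5.17 times in shoot.

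The linker LHCB4 has 3 genes, which differed widely in level. LHCB4.1 had 8024 counts in root and 235147 in shoot over 290 codons, on chromosome 5 from 209085 to 210242. LHCB4.2 had 6128 and 157003 over 287 codons, on chromosome 3 from 2717718 to 2718664. LHCB4.3 had 921 and 11465 over 276 codons, on chromosome 2 from 16745885 to 16747189. Each of the 3 ORFs spans 2 blocks on the plus strand.

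LHCB4.1 and LHCB4.2 had similar ratios, 34.8-fold (log2 5.12, 5.09 to 5.15) and 30.4-fold (4.93, 4.89 to 4.96), with intervals that did not overlap. LHCB4.3 was 14.8-fold higher in shoot (log2 3.89, 3.79 to 3.98). Over the whole ORFs, the gap between the main linker genes and the rare one was therefore wider in shoot. LHCB4.1 exceeded LHCB4.3 per codon by 8.29 times in root and 19.5 times in shoot, and LHCB4.2 exceeded it by 6.40 and 13.2 times. The size of this gap depends on the part of LHCB4.3 that is counted, above all in root. A shorter LHCB4.3 ORF of 185 codons, described below, had 1.86 counts per codon in root and 38.95 in shoot. The whole ORF had 3.34 and 41.5.

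LHCB5 had 13370 counts in root and 306114 in shoot over 280 codons in 6 blocks on chromosome 4, from 6408201 to 6409495, a 27.2-fold higher share in shoot (log2 4.76, 4.74 to 4.79). LHCB6 had 9487 and 167754 over 258 codons in 2 blocks on chromosome 1 from 5446688 to 5447675, minus strand, and was 21.0-fold higher (log2 4.39, 4.36 to 4.42). LHCB5 was thus above LHCB6 in both tissues, at 47.8 against 36.8 counts per codon in root and 1093 against 650.2 in shoot.

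LHCB7 was listed in shoot only. Its ORF of 327 codons in 6 blocks, on chromosome 1 from 28729133 to 28730753, had 636 counts (588 to 687), or 1.94 per codon, below the median of 3.67 per codon over all shoot genes. Of the 1674 shoot genes with 509 to 795 counts, a range around LHCB7, 1515 were also listed in root (90.5%, exact binomial interval 89.0 to 91.9). LHCB7 belonged to the remaining genes of that count class. A gene missing from a table was not shown to be untranslated, the smallest ORF count listed being 6 in each tissue, and no fold was computed for it.

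**Figure D1:**
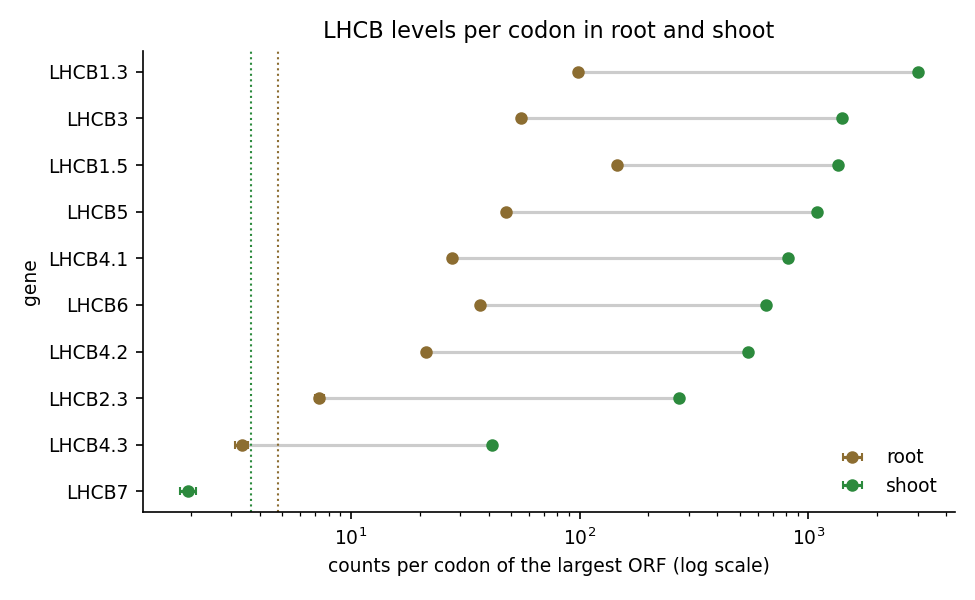
Counts per codon of the largest ORF of each LHCB gene in root and shoot, on a log axis, 1 value per tissue, with exact Poisson 95% intervals (counting error only, mostly smaller than the points). Dotted lines mark the medians over all listed genes, 4.79 in root and 3.67 in shoot. LHCB1.3 leads in shoot at 3001 and LHCB1.5 in root at 145.0, and LHCB7 has a shoot value only.

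Ordered by counts per codon, the shoot series ran from LHCB1.3 (3001) through LHCB3 (1406), LHCB1.5 (1340), LHCB5 (1093), LHCB4.1 (810.9), LHCB6 (650.2), LHCB4.2 (547.0), LHCB2.3 (271.8) and LHCB4.3 (41.5) to LHCB7 (1.94). In root it ran from LHCB1.5 (145.0) through LHCB1.3 (98.0), LHCB3 (55.3), LHCB5 (47.8), LHCB6 (36.8), LHCB4.1 (27.7), LHCB4.2 (21.4) and LHCB2.3 (7.29) to LHCB4.3 (3.34). No neighbours in either order had overlapping counting intervals, but error between plants was not measured. The orders were alike except that LHCB1.5 took the first place and LHCB6 passed LHCB4.1 in root. All of the root values except that of LHCB4.3 lay above 4.79 counts per codon, the median over the listed root genes. The range from highest to lowest, over the 9 genes listed in both tissues, was 43.5-fold in root and 72.2-fold in shoot.

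The make-up of the set of 10 genes followed from these levels. LHCB1.3 made up 32.3% of the summed count of the 10 in shoot (exact binomial interval 32.3 to 32.4) and 22.0% in root (21.7 to 22.2). LHCB1.5 made up 14.3% in shoot (14.3 to 14.4) and 32.3% in root (32.0 to 32.5). The shares of LHCB2.3 (2.92% in shoot, 1.63% in root), LHCB3 (15.0% and 12.3%), LHCB4.1 (9.48% and 6.74%), LHCB4.2 (6.33% and 5.14%) and LHCB5 (12.3% and 11.2%) were each somewhat larger in shoot. LHCB6 (6.77% and 7.96%) and LHCB4.3 (0.462% and 0.773%) had larger shares in root, as did LHCB1.5. The 10 genes are not all LHCB loci of the genome. The other copies listed were LHCB1.2 and LHCB1.4 in both tissues and LHCB1.1 in root only. With these in the sum of each tissue, LHCB1.3 made up 26.0% in shoot and 16.4% in root, and LHCB1.5 11.5% and 24.0%.

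**Figure D2:**
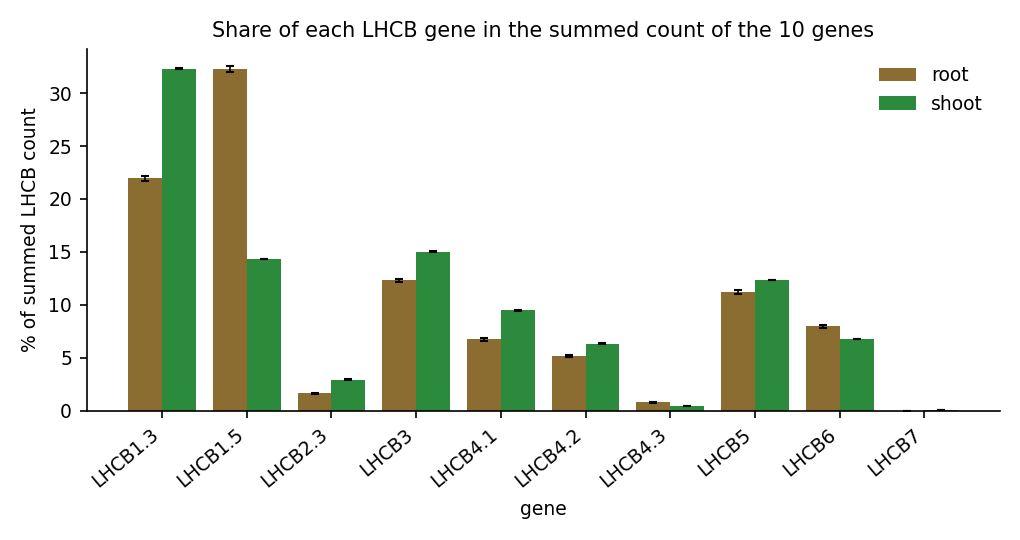
Share of each gene in the summed count of the 10 LHCB genes (%), in root and shoot, 1 value per tissue, with exact binomial 95% intervals that cover counting error only. LHCB1.3 holds the largest share in shoot (32.3%) and LHCB1.5 in root (32.3%).

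All 9 LHCB genes with a ratio were at least 4-fold higher in shoot. Ratios were taken from ORFs of identical coordinates in both tissues that reached 100 counts in one of them, which 11610 genes had. Of these genes 1017, or 8.76%, passed that size. The median log2 ratio was 4.92 over the 9 genes (30.2-fold) and -0.33 over all genes, whose quartiles were -0.97 and 0.35. The 9 ratios still differed among themselves by up to 4.03-fold, from LHCB2.3 to LHCB1.5. Only LHCB4.2 and LHCB3, of the neighbours in the order of ratios, had overlapping intervals. Expressed the other way, the root share was 2.26% (LHCB2.3) to 9.11% (LHCB1.5) of the shoot share.

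The marker genes of the organs gave these values beside the LHCB counts of root. Of the 14 stomatal and leaf genes, all listed in shoot, 0 were listed in root, among them SPCH, MUTE and FAMA, transcription factors of the stomatal lineage, and the leaf polarity factors FIL and YAB3. In shoot the 14 had 78 to 3919 counts each and 15438 in all, mostly far below those of the LHCB genes, so their listing in root is less sensitive. Over all 16191 shoot genes, 1516 (9.36%) were not listed in root. Of 8 root markers, 5 were listed in root only, and EXPA7, CASP1 and CASP2 had 304, 380 and 52 counts in shoot against 17572, 19925 and 6827 in root. The counts of CASP1 and CASP2 come from ORFs that were not identical between tissues. Over all 16757 root genes, 2082 (12.4%) were not listed in shoot. Any part of shoot tissue in the root LHCB counts was not tested.

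LHCB1 is a family of close copies, and reads that match several copies can be split or dropped, in a way not given in the sources used here. For this reason the other copies were also set beside LHCB1.3 and LHCB1.5. LHCB1.1 (AT1G29920) had 14426 counts in root and no ORF listed in shoot. LHCB1.2 (AT1G29910) had 15307 counts in root and 418370 in shoot, and LHCB1.4 (AT2G34430) had 10960 and 185252. LHCB2.1 (AT2G05100) and LHCB2.2 (AT2G05070) were listed in neither tissue. The values of LHCB1 and LHCB2 genes are uncertain for this reason, that of LHCB2.3 included.

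Summed over the 4 LHCB1 loci listed in both tissues, the counts were 90871 in root and 1760148 in shoot, 23.0-fold higher in shoot (log2 4.52). With the 14426 root counts of LHCB1.1, which has no shoot value, the root sum was 105297 and the difference 19.8-fold (log2 4.31). Neither sum accounts for reads on a copy that was not listed. Of the sum over the 4 loci, LHCB1.5 held 42.3% in root and 20.2% in shoot. LHCB1.3 held 28.8% and 45.5%. LHCB1.2, which lies near LHCB1.3 on chromosome 1 with LHCB1.1 between them, held 16.8% in root and 23.8% in shoot. LHCB1.4, next to LHCB1.5 on chromosome 2, held 12.1% in root and 10.5% in shoot.

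The start of the listed ORF also differed between tissues for a pair of LHCB1 copies. The LHCB1.2 ORF had 262 codons in root and 267 in shoot, from 10472446 to 10473230 and to 10473245 on chromosome 1, minus strand. The LHCB1.4 ORF had 261 and 266 codons, starting at 14524834 in root and 14524819 in shoot on chromosome 2, plus strand. In both genes the root ORF was 5 codons shorter at its start, with the same stop end. These genes therefore have no identical ORF, and their ratios from the largest ORF of each tissue, 32.5-fold and 20.1-fold, compare ORFs that differ by those 5 codons.

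LHCB4.2 and LHCB4.3 had more than 1 ORF listed, which shows how counts lay along each gene. In LHCB4.2 a second ORF, on chromosome 3 from 2718541 to 2718664, covers the last 41 of the 287 codons (codons 247 to 287) and was listed with the same coordinates in both tissues. It had 939 counts in root, 15.3% of the whole ORF (14.4 to 16.2), for 14.3% of its length. In shoot it had 8128, or 5.18% (5.07 to 5.29).

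Average density in root was thus similar in both stretches of LHCB4.2, at 21.1 counts per codon over codons 1 to 246 and 22.9 over the last 41. In shoot it was 605.2 over codons 1 to 246 and 198.2 over the last 41. The shoot over root ratio was 34.1-fold for the first stretch (log2 5.09, 5.05 to 5.13) and 10.3-fold for the last (log2 3.36, 3.26 to 3.46). A further ORF of 227 codons, listed in root only with 3593 counts, starts at the same place and runs through the 85 bases between the blocks into the second block. It had 15.8 counts per codon, those 85 bases included. How even the density was within codons 1 to 246 was not tested.

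LHCB4.3 also had a shorter ORF, of 185 codons, which holds the first block of the main ORF (512 bases) and 44 bases beyond it. Its count is the most that the first block can hold, if counts add up over blocks. It was 344 of 921 counts in root and 7206 of 11465 in shoot. The second block, 38.2% of the length, therefore held at least 577 counts in root, or 62.6% (59.4 to 65.8), and at least 4259 in shoot, or 37.1% (36.3 to 38.0). The first block had at most 2.02 counts per codon in root, against at least 5.46 in the second. In shoot the bounds were 42.2 and 40.3.

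**Figure D3:**
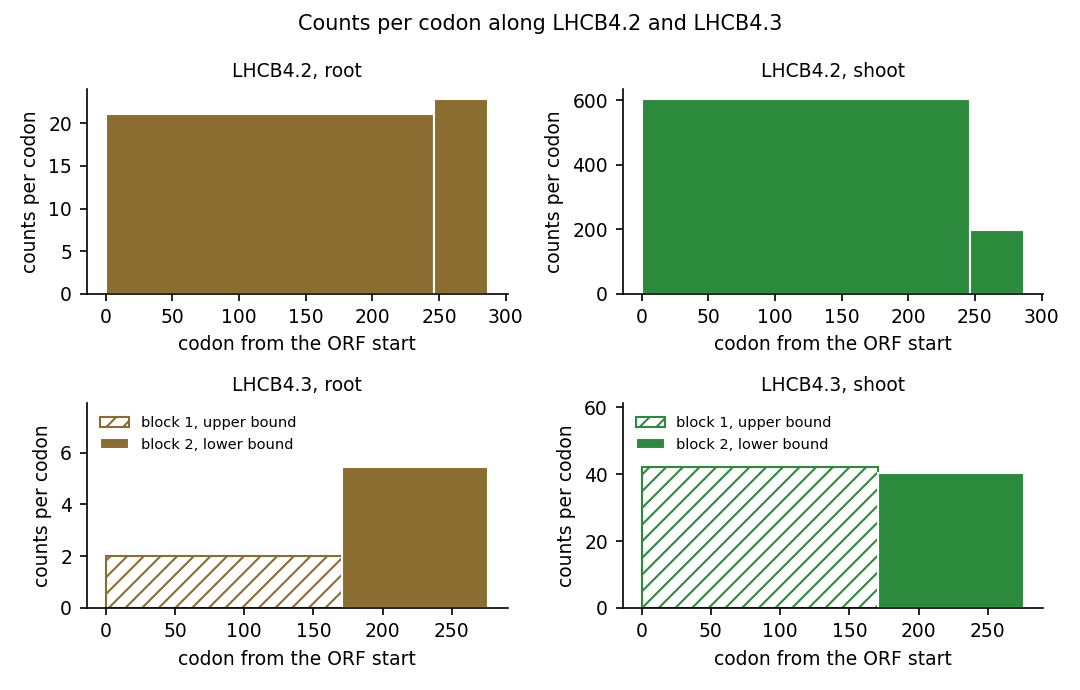
Counts per codon along LHCB4.2 (codons 1 to 246 and 247 to 287) and LHCB4.3 (first and second block), in root and shoot, with separate vertical axes from 0. For LHCB4.3 the hatched bars are upper bounds and the filled bars lower bounds. Each bar is an average over its stretch. In LHCB4.2 the last 41 codons stand at 22.9 in root, beside 21.1 before them, and at 198.2 in shoot, beside 605.2.

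The LHCB4.2 difference was set beside all genes that had one coding ORF inside another, both identical in the 2 tissues and with at least 1000 counts in the outer ORF of each tissue. This comparison was chosen after the LHCB4.2 values were seen, and it is a description without a test. Over 1629 such pairs of 1208 genes, the log2 difference between tissues in the share of the inner ORF had a median of 0.00 (quartiles -0.01 and 0.02). LHCB4.2, at -1.57, was the lowest of them, followed by -1.38. Over the 125 pairs most like it, where the inner ORF shares the stop end and has at most 30% of the length, the quartiles were -0.38 and 0.22 and the highest value 1.64. Among these, 7 lay at -1 or below and 3 at 1 or above. LHCB4.1 encodes a close relative, and how shared reads were assigned was not tested.

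**Figure D4:**
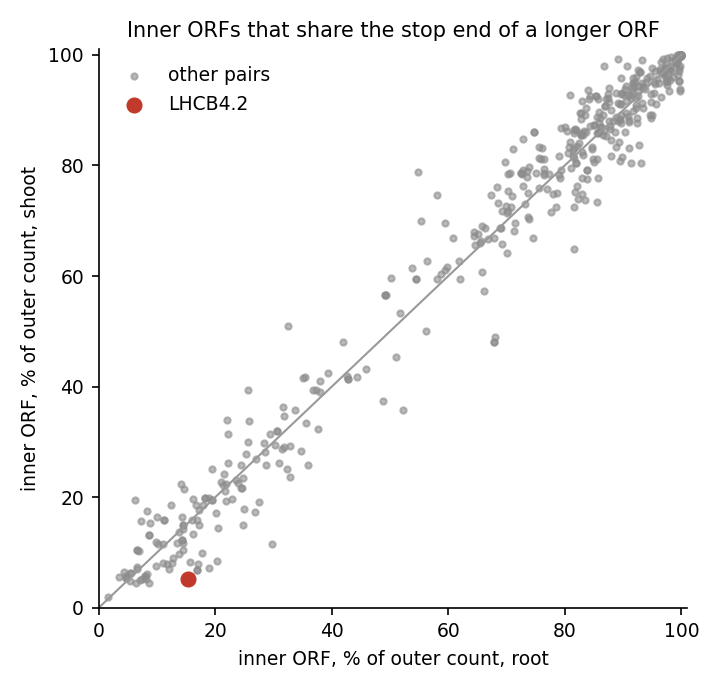
Count of an inner ORF that shares the stop end of a longer ORF, as % of the count of the longer ORF, in root (horizontal) and shoot (vertical), for 467 pairs of 389 genes, with the line of equality. LHCB4.2 (red) lies below the line, at 15.3% in root and 5.18% in shoot.

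Genes that work with the LHCB proteins were compared by lists. In photosystem I, whose antenna proteins are encoded by LHCA genes of the same superfamily, 5 of 6 genes had a ratio, and 5 of 5 were at least 4-fold higher in shoot, at a median of 4.52 on the log2 scale. LHCA1 (5.01), LHCA2 (4.71), LHCA3 (4.52) and LHCA4 (4.36) stood above the rarer LHCA5 (3.68), which had 514 counts in root and 5566 in shoot. LHCA6 was listed in shoot only, with 5567 counts. LHCA5 and LHCA6 had the smallest shoot counts of the list, as LHCB4.3 and LHCB7 had among the LHCB genes.

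Of the 12 nuclear subunits of photosystem II, 12 were at least 4-fold higher in shoot, at a median log2 value of 4.39. PSBQ1, an extrinsic subunit of the oxygen-evolving complex, was highest at 5.12, followed by PSBY at 4.91. PSBR, at 3.58, and PSBO2, which stabilises the manganese cluster, at 3.99, were lowest. These nuclear subunits and the antenna thus overlapped in their ratios, and whether their medians differ was not tested.

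Proteins that bring LHCB proteins to the membrane were higher in shoot too. Of 5 genes, 4 had a ratio, 4 of 4 passed 4-fold and the median log2 ratio was 3.21. The chloroplast signal recognition particle subunit cpSRP54 was highest (4.27), with 1597 counts in root and 25890 in shoot. Its receptor cpFtsY (3.14), the membrane insertase ALB3 (3.28) and the transport factor LTD (2.95) were lower. cpSRP43, the subunit that binds LHC proteins, had no identical ORF. Its largest ORF count was 806 in root and 11799 in shoot.

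Chlorophyll b, which LHCB proteins need to fold, is made by CAO. CAO had 1670 counts in root and 31258 in shoot (log2 4.47). Among genes that return chlorophyll b to a, NYC1 had a log2 ratio of 3.66, NOL had 91 and 1726 counts over ORFs that were not identical, and HCAR was listed in shoot only with 2836. The 2 of 4 genes with a ratio both passed 4-fold, with a median of 4.06.

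Of the 4 kinases and phosphatases of the antenna and core, 3 had a ratio and 3 passed 4-fold, at a median log2 value of 3.27. STN7, the kinase that phosphorylates LHCB1 and LHCB2 in state transitions, had 918 counts in root and 8392 in shoot (log2 3.44). TAP38, the phosphatase that reverses this, had a log2 ratio of 3.27. PBCP, a phosphatase of the core proteins, had 2.80 over an ORF of 221 codons. STN8, the core kinase, had no identical ORF and counts of 430 in root and 4463 in shoot.

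Of 7 LHC-like proteins, 6 had a ratio and 6 passed 4-fold, with a median log2 ratio of 3.96. LIL3:1, which acts in chlorophyll synthesis, was highest at 5.36. PSBS, which triggers the dissipation of excess light energy in the antenna, followed at 5.01 over an identical ORF of only 90 codons. ELIP1, an early light-induced protein, had 6438 counts in root and 39553 in shoot (2.87), and the one-helix protein OHP2 was lowest at 2.08.

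Regulators of antenna genes differed among themselves. Of 7, 3 of the 4 with a ratio passed 4-fold, and the median log2 ratio was 2.13. The chloroplast development factor GLK1 (2921 counts) and the GATA factors GNC (2754) and CGA1 (2723) were listed in shoot only. GLK2 had 2197 counts in root and 8167 in shoot (2.14). CCA1, a clock factor first described as a protein that binds an LHCB1 promoter, had a log2 ratio of 2.64, and its relative LHY 2.12. HY5, a light-signalling factor, went the other way, with 3749 counts in root and 822 in shoot (-1.94).

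**Figure D5:**
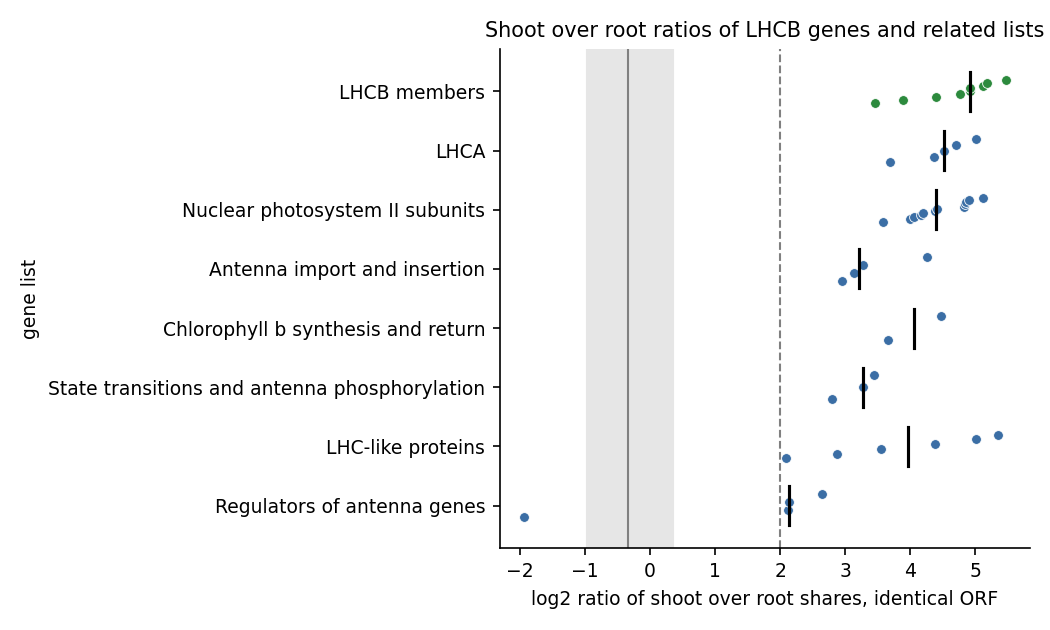
Log2 ratio of shoot over root shares for each gene with an ORF of identical coordinates in both tissues, by list, 1 value per gene. Black ticks mark list medians, the dashed line 4-fold, the grey line the median of all 11610 genes (-0.33) and the grey band their quartiles. The LHCB genes lie between 3.46 and 5.47, and HY5 is the point below 0.

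Genes outside these lists with a pattern near that of the LHCB family were sought among 13 genes whose identical ORF had at least 810.9 counts per codon in shoot, the median of the LHCB genes with a ratio. Likeness was the distance of the log2 ratio from the LHCB median, over 2 tissue values. The nearest were DRT112, a plastocyanin, at 4.95, PSAD-1 of photosystem I at 4.77, the plastid aldolase FBA2 at 4.76, PSAE-1 of photosystem I at 5.15 and RCA, Rubisco activase, at 4.63.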

How the data were processed

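The submitters' processing notes list the build TAIR10 and the tools Bowtie2 and STAR 2.5.1b without their roles. How ORFs were called and how the 3 samples of a tissue were combined is not given in the sources used here. In each tissue the authors' deposited table gives a whole-number count for each ORF, repeated on every exon block and not scaled by length or depth. No header names the unit, which was inferred from the numbers. Blocks with 1 name were joined into 1 ORF, with the coding length from the transcript positions in the name, which differs from the block sum by 1 base.

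The members and gene lists were chosen with earlier results of these data known. Gene names were matched by locus tag to a RefSeq table (TAIR10.1), for 72 of 72 listed genes. Gene values are the largest ORF count of a gene, and a share is an ORF count over the sum of these values in its tissue. The shoot share was divided by the root share and put on a log2 scale, after adding 0.5 to each count. This used, per gene, the longest coding ORF whose coordinates were identical in both tissues, where 1 of them had at least 100 counts. Ratio intervals are exact conditional binomial (Clopper-Pearson) at 95%, and counts have exact Poisson intervals. No test between tissues was made, as each had 1 set.

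From lists of up to 6 genes all are named, from longer ones the 2 highest and 2 lowest ratios and genes of 1 tissue. The 5 genes outside the lists are those nearest to the LHCB median. Alternatives were adding 5 to each count, scaling on nuclear chromosomes or on the median ratio, the largest ORF, no count filter, coding ORFs only and ORF counts of at least 1000. Family shares were also taken per codon and from the identical ORF. Summing the LHCB1 loci, and adding the other LHCB copies to the family sum, were chosen after the data were seen. Comparisons of protein and promoter sequence were not run. Scripts ran under Python 3.11.15 (numpy 2.4.6, scipy 1.17.1, pandas 2.3.3, matplotlib 3.10.9). The ratio and its interval were tested on simulated counts, and the joining and nesting of ORFs were not.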

Additional observations from a re-analysis of the deposited data

How the results depend on the processing

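All 9 LHCB genes with a ratio remained at least 4-fold higher in shoot under each of the 5 alternatives for the ratio, with log2 ratios from 3.46 to 5.80. Their median of 4.92 became 5.25 when scaled on the median ratio, 4.96 when scaled on nuclear chromosomes and 4.84 with the LHCB1 loci summed as 1 entry, whether all 5 or the 4 listed in both tissues, the last chosen after the data were seen. Scaling on the median ratio adds 0.33 to every gene, and moves the shoot side of all genes past 4-fold from 51.4% to 62.1%. With ORF counts of at least 1000, 8 in place of 9 genes were listed in both tissues, as LHCB4.3 had 921 in root. The shares of LHCB1.5 in the sum of the 10 genes, 32.3% in root and 14.3% in shoot, were 32.8% and 14.6% from counts per codon. No paired analysis was possible because the tables hold 1 value per ORF and tissue, and for the same reason no replicate could be left out. Counts limit precision for LHCB7 and for LHCB4.3 in root.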
